A study of Mus musculus with 6 samples.

Results

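The genes described here are 32 genes of homologous recombination and of the Fanconi anaemia pathway, taken by symbol from a list of the components of both. All 32 symbols matched an identifier in the deposited table of 55471 genes, and all 32 had enough reads to be among the 13044 genes tested. They were read in RNA-seq libraries of a cultured mouse undifferentiated pleomorphic sarcoma (UPS) line, labelled as metastatic cells and kept in serum-containing medium. The tested libraries were 3 with the genotype Setd1a knockout, and they were set against 3 control libraries with the genotype WT. Setd1a encodes a histone methyltransferase of active promoters. The titles carry a further tag that divides the libraries as the genotype does, and the labels do not explain it; any effect of it is confounded with the knockout. No label says how the gene was disrupted, whether the line is a clone, or whether replicates were separate cultures. P-values therefore measure the spread between these libraries, which may be technical.

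Homologous recombination repairs a double-strand break by copying the intact sister chromatid. The broken ends are first cut back to single strands, mediator proteins then prepare those strands for pairing with the sister, motor proteins help the exchange of strands, and nucleases or the Blm helicase separate the joined molecules. The Fanconi anaemia pathway handles crosslinks between DNA strands. A core complex acts as a ubiquitin ligase on the Fancd2 and Fanci proteins, and the modified pair brings in nucleases, after which recombination completes the repair. Many of these genes are known to be transcribed most in S phase, under E2F factors. In leukaemia cells, Setd1a has been tied to the expression of DNA damage response genes through its binding of cyclin K.

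Promoter sequences are shown for the 3 members with the smallest unadjusted p among those in the promoter table, to show the start sites of members that were lower in every knockout library. Fancd2 and Rad50, which had the first and the fourth smallest p of all members, are not in that table. The 3 members shown are Rad51b, of a complex that assists strand exchange, Fan1, a nuclease of crosslink repair, and Brca2, a mediator of strand exchange. Each run is the 250 bases before the RefSeq start on GRCm38.p6, 5′ to 3′ on the gene's strand. Capitals mark an E2F word (TTTCCCGC, TTTGGCGC, TTTCGCGC, TTTGCCGC, TTCCCGCC or TTGGCGCC, of which some can overlap), a CCAAT word or a CHR word (TTTGAA or TTCGAA, a cell cycle element) on either strand.
Rad51b (chr12:79297032-79297281, plus strand): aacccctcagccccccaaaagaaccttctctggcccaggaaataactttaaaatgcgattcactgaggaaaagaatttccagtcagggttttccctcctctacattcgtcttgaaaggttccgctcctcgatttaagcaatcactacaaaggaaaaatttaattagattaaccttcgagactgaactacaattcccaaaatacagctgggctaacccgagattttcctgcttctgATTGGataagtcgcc
Fan1 (chr7:64374057-64374306, minus strand): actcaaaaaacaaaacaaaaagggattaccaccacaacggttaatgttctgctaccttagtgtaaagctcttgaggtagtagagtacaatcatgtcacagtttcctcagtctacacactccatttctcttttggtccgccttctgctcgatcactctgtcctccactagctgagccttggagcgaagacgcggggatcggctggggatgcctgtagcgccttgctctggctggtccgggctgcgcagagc
Brca2 (chr5:150522371-150522620, plus strand): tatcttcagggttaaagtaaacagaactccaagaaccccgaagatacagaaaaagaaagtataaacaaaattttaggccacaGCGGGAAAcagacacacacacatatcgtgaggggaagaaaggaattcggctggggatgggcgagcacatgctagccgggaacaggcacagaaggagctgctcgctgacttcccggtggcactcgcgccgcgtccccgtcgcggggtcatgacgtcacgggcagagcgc

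The Rad51b window held a CCAAT word, read as ATTGG on the printed strand 15 bases before the start. The Brca2 window held an E2F word, read as GCGGGAAA on the printed strand 168 bases before the start. The Fan1 window held none of the words. Of the 32 members, 24 were in the promoter table, with 27 windows in all. An E2F word lay in 6 of these 27 windows (22.2%), against 3.70% of all 32851 windows and 6.66% of the 12342 windows of genes tested here. The windows were those of Brca2, Bard1, Rad51c, Fancb, Fancg and Fancm, which had log2 changes on both sides of 0. A CCAAT word lay in 16 of the 27 windows (59.3%), against 35.8% of the windows of genes tested, and a CHR word in 1 (3.70%), against 12.3%. These are matches of letters, and binding was not measured.

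Library totals lay between 17749533 and 18272622 counts. The least abundant member, Rad51b, had 39 to 52 reads in the knockout libraries and 61 to 80 in the control libraries. The Setd1a transcript, the targeted gene, was at 53.2, 68.7 and 56.3 CPM (the count scaled to the size of the library) in knockout replicates 1, 2 and 3, against 71.0, 75.3 and 73.5 CPM in the control replicates. The knockout values all lay below the control values, but the transcript was present in every library, and 52.3% of its exonic bases are shared with overlapping genes, so its level is uncertain. Its log2 change of -0.30 ± 0.12 (SE) did not pass edgeR's quasi-likelihood test (adjusted p = 0.426). Of the mesenchymal markers fixed as a check, 10 of 10 passed the low-count filter, with Vim at 5175 to 5824 CPM in the knockout and 5642 to 6564 CPM in the control. The summed level of the 10 was 7593 to 8813 CPM in the knockout and 8859 to 9302 CPM in the control, without overlap. Of 10 macrophage markers 2 passed, with sums of 19.9 to 28.3 CPM in the knockout and 20.4 to 22.6 CPM in the control, and Adgre1, C1qa and C1qb were at 0 counts in every library. Of 8 endothelial markers 2 passed, with sums of 27.6 to 34.6 CPM in the knockout and 20.8 to 27.0 CPM in the control, higher in the knockout without overlap. Of 8 epithelial markers 4 passed, with sums of 50.3 to 96.8 CPM in the knockout and 53.2 to 91.6 CPM in the control, and Cldn7 was at 0. In the edgeR test with the replicate number as a block, 1 epithelial marker was called higher in the knockout, as were 1.43% of all genes tested. The part of the marker differences in the results on the repair genes was not tested.

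As a set, the repair genes lay slightly lower in the knockout libraries, and no single member passed the test over all genes. Of the 32, 25 had a log2 change below 0, against 49.8% of all genes tested, and 7 had one above 0. The median log2 change was -0.14, against 0.00 over all genes tested, and the changes ran from -0.65 for Rad51b to 0.19 for Fancm. A median this low was not particular to the set. It was -0.19 for the 10 mesenchymal markers, with 9 below 0, -0.18 for mismatch repair and -0.15 for nonhomologous end joining. It was -0.04 for genes of S phase and replication and 0.04 for p53 targets. The summed level of the 32 genes was 768.8, 784.4 and 746.6 CPM in the knockout libraries, against 874.8, 862.2 and 781.6 CPM in the control libraries. The knockout mean was 0.913 of the control mean, but the groups overlapped, since knockout replicate 2 lay above control replicate 3. In these bulk libraries, fewer cells that express a gene and less RNA per cell cannot be told apart.

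No member passed at an adjusted p under 0.05 in edgeR's quasi-likelihood test, in either direction, where the share of all genes called was also 0% lower and 0% higher. The adjusted p-values of the members ran from 0.328 for Fancd2 to 0.991 for Nbn. At an unadjusted p under 0.05, 7 members were lower in the knockout and 0 were higher, against 4.51% of all genes tested that were lower and 5.5% that were higher. A paired edgeR test used the replicate number as a block, a pairing taken from the data and not from a label. This paired test called 0.851% of all genes lower and 1.43% higher, and 0 members, of which Fancd2 came nearest (adjusted p = 0.0589). At an unadjusted p under 0.05 it had 9 members lower and 0 higher, against 9.62% and 9.94% of all genes. DESeq2 called 0.307% of all genes lower and 0.713% higher and 0 members, with 7 members lower and 0 higher at an unadjusted p under 0.05, against 4.09% and 4.39% of all genes. Limma-voom called 0 genes in either direction, with 7 members lower and 0 higher at an unadjusted p under 0.05, against 4.58% and 5.18% of all genes. The count of 7 lower members depended on single libraries: it was 2 without knockout replicate 1, where 2.46% of all genes were lower by the same measure. It was 4 without control replicate 1 or control replicate 2, where 3.08% and 3.55% of all genes were lower. The paired count of 9, which adds Fanci and Fance to the 7, was 5 without pair 2, where 5.05% of all genes were lower. The share over all genes dropped along with the members' count in each of these, but the 2 did not always move together. Without knockout replicate 2 the count was 8, where 3.44% of all genes were lower. Without control replicate 3 it was 6, where 2.87% of all genes were lower. The drop in the share therefore does not account for the dependence on single libraries.

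For 10 members the highest knockout value was under the lowest control value, and for 0 members the lowest knockout value was over the highest control value, against 7.77% and 7.49% of all genes tested. The 10 were Palb2, Brca2, Rad51b, Rad51d, Xrcc3, Rad50, Fancf, Fancd2, Fan1 and Eme1. Within replicate numbers, 16 members were below control in all 3 pairs, against 21.6% of all genes tested, and 2 were above in all 3, against 19.9%. The 2 were Fancm and Rad54l. The members' median log2 ratios were -0.25, -0.19 and -0.12 for replicate numbers 1, 2 and 3, against 0.00, 0.00 and -0.02 over all genes tested.

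**Figure D1:**
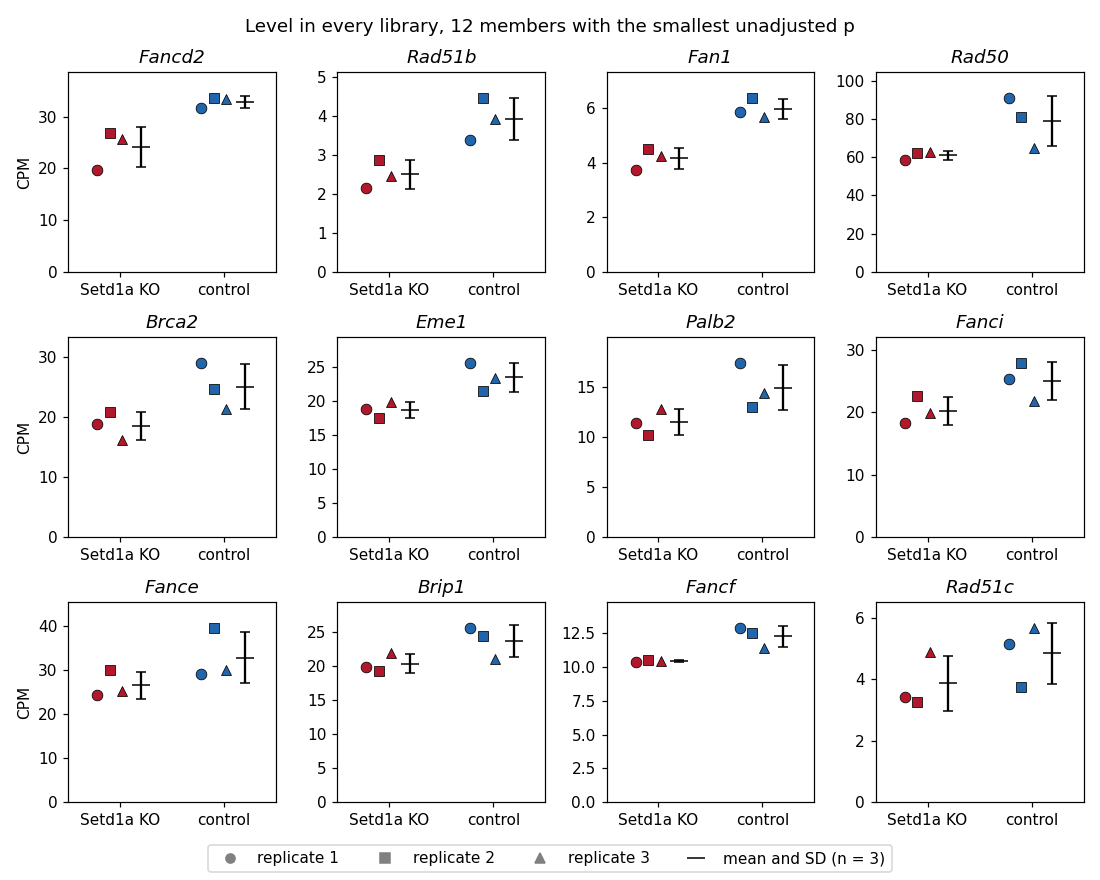
CPM (vertical axis, from 0) of the 12 members with the smallest unadjusted p, in 3 Setd1a knockout libraries (red, left) and 3 control libraries (blue, right); symbols mark replicate numbers and bars the mean and SD. The groups do not overlap for Fancd2, Rad51b, Fan1, Rad50, Brca2, Eme1, Palb2 and Fancf, and they overlap for the other 4.

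Among the genes of end resection, Rad50 was the one member lower in all knockout libraries, while the other 3 differed little between the groups. Rad50 (ENSMUSG00000020380, chromosome 11, positions 53649519 to 53707319, minus strand) encodes the ATPase of the complex that first binds and trims a broken end. It was at 58.3, 62.1 and 62.6 CPM in knockout replicates 1, 2 and 3, against 90.9, 80.9 and 64.8 CPM in the control replicates. The knockout values were close together and the control values were spread, with control replicate 3 only slightly above the knockout values. The log2 change was -0.37 ± 0.13 (SE; adjusted p = 0.380, edgeR). Nbn, the partner of Rad50 that calls the damage kinase, averaged 45.7 ± 6.71 CPM in the knockout and 46.3 ± 12.2 CPM in the control (SD, n = 3), and in both groups replicate 3 was the lowest. Rbbp8, which encodes the cofactor CtIP that starts resection, averaged 49.96 ± 5.28 CPM in the knockout and 50.5 ± 6.89 CPM in the control. The long-range resection nuclease gene Exo1 averaged 55.7 ± 5.23 CPM in the knockout and 57.4 ± 2.83 CPM in the control. Its 95% interval ran from -0.29 to 0.20 on the log2 scale.

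Of the 5 strand exchange mediators, Brca2 and Palb2 were lower in every knockout library, and Brca1 and Bard1 had nearly equal levels in both groups. Brip1 lay between them, with a log2 change of -0.22. Brca2 (ENSMUSG00000041147, chromosome 5, positions 150522630 to 150570329, plus strand) acts on single-stranded DNA to start strand exchange. It was at 18.9, 20.8 and 16.2 CPM in the knockout replicates, against 29.0, 24.8 and 21.5 CPM in the control replicates. The highest knockout value was just below the lowest control value, and the log2 change was -0.43 ± 0.15 (SE; adjusted p = 0.384, edgeR). Palb2 (ENSMUSG00000044702, chromosome 7, positions 122107262 to 122132985, minus strand) encodes the protein that joins Brca2 to Brca1. It was at 11.3, 10.2 and 12.8 CPM in the knockout replicates, against 17.4, 13.0 and 14.4 CPM in the control replicates, and the groups were separated by a small gap between knockout replicate 3 and control replicate 2. Its log2 change was -0.38 ± 0.16 (SE; adjusted p = 0.470, edgeR).

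Brca1 and Bard1 encode the partners of a ubiquitin ligase that favours recombination over end joining. Brca1 was at 61.4, 53.01 and 58.2 CPM in the knockout replicates, against 59.6, 53.3 and 57.2 CPM in the control replicates. Its log2 change of 0.02 ± 0.11 (SE) had a 95% interval from -0.22 to 0.26, the smallest standard error of any member. Bard1 averaged 10.3 ± 1.43 CPM in the knockout and 10.1 ± 0.435 CPM in the control (SD, n = 3). The ratio of Brca2 to Brca1 CPM within a library was 0.308, 0.393 and 0.278 in the knockout, against 0.487, 0.465 and 0.375 in the control. Its groups overlapped, since knockout replicate 2 lay above control replicate 3. The groups also overlapped for the ratio of Palb2 to Bard1. Whether the members of this role differed in their change was not tested. Brip1, the helicase also known as Fancj, was at 19.9, 19.3 and 21.9 CPM in the knockout replicates, against 25.6, 24.4 and 21.1 CPM in the control replicates, with knockout replicate 3 above control replicate 3 (adjusted p = 0.637, edgeR).

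Of the 5 genes of the paralog complexes, which assist strand exchange, namely Rad51b, Rad51c, Rad51d, Xrcc2 and Xrcc3, 4 had log2 changes below 0 and 3 were lower in all knockout libraries. Over all genes tested, 49.8% were below 0 and 7.77% were lower in all knockout libraries. Rad51b (ENSMUSG00000059060, chromosome 12, positions 79297282 to 79814690, plus strand) was at 2.15, 2.89 and 2.47 CPM in the knockout replicates, against 3.38, 4.47 and 3.92 CPM in the control replicates. Its within-pair log2 ratios were nearly the same, at -0.63, -0.61 and -0.64. The log2 change of -0.65 ± 0.22 (SE) was the largest of any member in size, at 0.639 of the control level (adjusted p = 0.374, edgeR), in a gene with the lowest level of all members. Rad51c, which joins both paralog complexes, was at 3.41, 3.27 and 4.89 CPM in the knockout replicates, against 5.15, 3.74 and 5.66 CPM in the control replicates, and the groups overlapped. Rad51d averaged 17.9 ± 0.170 CPM in the knockout and 19.8 ± 1.43 CPM in the control, and Xrcc3 10.4 ± 0.814 CPM in the knockout and 11.8 ± 0.623 CPM in the control (SD, n = 3). Both were separated between groups with small differences, at log2 changes of -0.14 and -0.19. Xrcc2 averaged 14.5 ± 1.54 CPM in the knockout and 13.9 ± 0.127 CPM in the control.

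The motor genes Rad54l and Rad54b, whose products move along DNA during strand exchange, showed no common direction. Rad54b was at 7.32, 7.38 and 12.5 CPM in the knockout replicates, against 10.0, 9.16 and 10.8 CPM in the control replicates. Knockout replicate 3 lay above all controls and the other knockout libraries below them. Of the exonic bases of Rad54b, 35.9% are shared with other genes, so its counts are uncertain. The largest overlap is with Fsbp on the same strand. Rad54l averaged 25.6 ± 2.59 CPM in the knockout and 24.4 ± 2.31 CPM in the control (SD, n = 3), with within-pair log2 ratios of 0.06, 0.08 and 0.06. Of the exonic bases of Rad54l, 15.4% are shared with other genes, so its level is uncertain too. The largest overlap is with the more abundant Lrrc41 on the other strand.

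**Figure D2:**
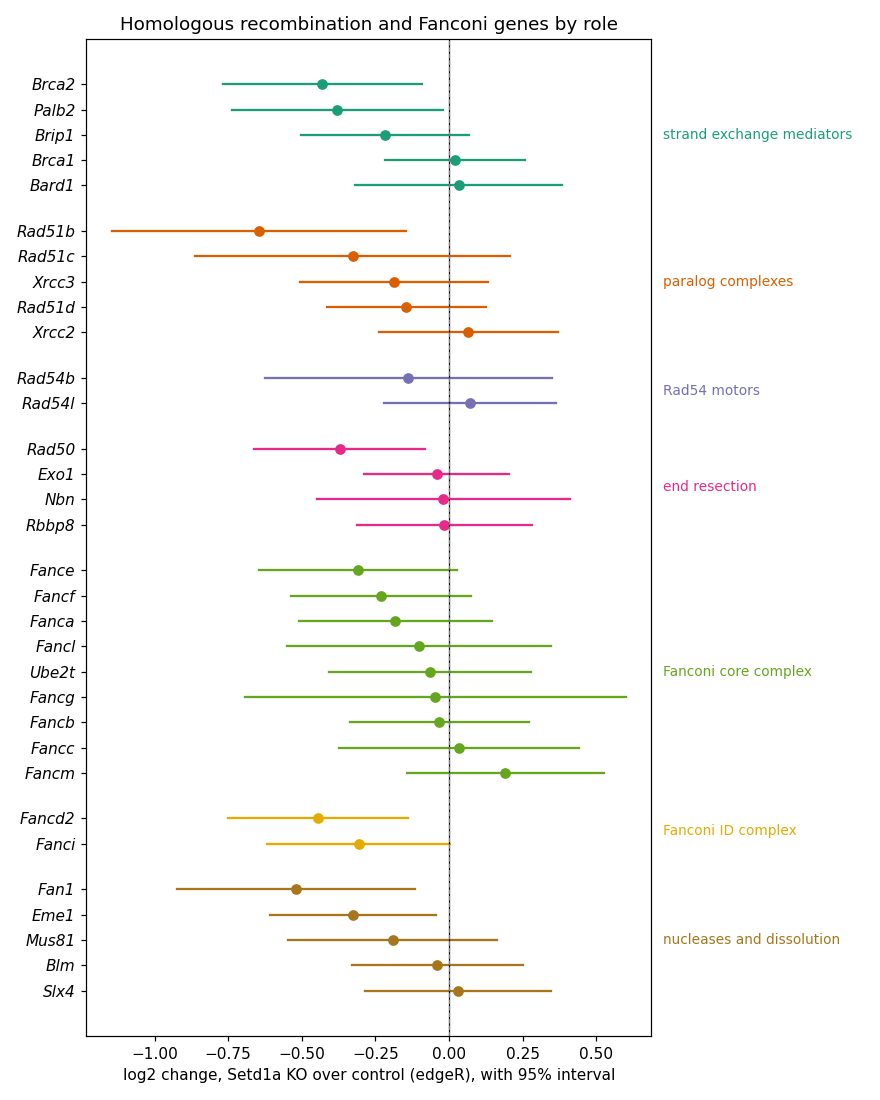
Log2 change, Setd1a knockout over control (horizontal axis; point, edgeR estimate; line, 95% interval), of the 32 members grouped by role; the dashed line is the median of all genes tested, at 0.00. The interval lies wholly below 0 for 7 members and wholly above 0 for 0. At an unadjusted p under 0.05, 4.51% of all genes tested were lower and 5.5% higher.

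The Fanconi ID complex was the role with the lowest median log2 change, -0.38, and both of its genes were lower in the knockout in all 3 pairs. Fancd2 (ENSMUSG00000034023, chromosome 6, positions 113531682 to 113597017, plus strand) encodes the protein whose ubiquitination marks a crosslink for repair. It was at 19.8, 26.9 and 25.7 CPM in the knockout replicates, against 31.6, 33.6 and 33.3 CPM in the control replicates. The controls lay close together, the knockout values lay clearly below them, and knockout replicate 1 was the lowest. The log2 change was -0.45 ± 0.14 (SE), with a 95% interval from -0.75 to -0.14, and Fancd2 had the smallest unadjusted p of the members (adjusted p = 0.328, edgeR).

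Fanci (ENSMUSG00000039187, chromosome 7, positions 79391929 to 79450264, plus strand) encodes the partner of Fancd2. It was at 18.2, 22.5 and 19.8 CPM in the knockout replicates, against 25.2, 27.9 and 21.9 CPM in the control replicates. Knockout replicate 2 lay above control replicate 3, so the groups overlapped, and the log2 change was -0.31 ± 0.14 (SE; adjusted p = 0.505, edgeR). Of its exonic bases, 16.0% are shared with other genes, the largest overlap being with Polg on the other strand. Since the strand setting is not given, reads of the overlap cannot be told apart. The summed level of Fancd2 and Fanci was 38.0, 49.5 and 45.5 CPM in the knockout replicates, against 56.8, 61.5 and 55.2 CPM in the control replicates, with no overlap.

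The Fanconi core complex was counted with its ubiquitin-conjugating enzyme. Of these 9 genes, 7 had log2 changes below 0, the median was -0.06, and 0 had an unadjusted p under 0.05. Over all genes tested, 49.8% were below 0, and 4.51% were lower and 5.5% higher at that threshold. Fance, which bridges the core complex to Fancd2, was at 24.3, 30.03 and 25.2 CPM in the knockout replicates, against 29.0, 39.5 and 29.98 CPM in the control replicates. It was lower in each pair, by log2 ratios of -0.26, -0.40 and -0.25, but knockout replicate 2 lay above control replicates 1 and 3 (adjusted p = 0.533, edgeR). Fancf, a single-exon adaptor gene of 1691 bases, was at 10.4, 10.5 and 10.4 CPM in the knockout replicates. Its control replicates were at 12.9, 12.5 and 11.4 CPM, with no overlap between groups (adjusted p = 0.647, edgeR). However, 15.0% of the exonic bases of Fancf are shared with other genes, the largest overlap being with Gas2 on the other strand.

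Fancl, the ligase subunit, averaged 4.40 ± 0.687 CPM in the knockout and 4.72 ± 0.504 CPM in the control (SD, n = 3), and Ube2t, the conjugating enzyme that works with it, 16.7 ± 2.32 CPM in the knockout and 17.4 ± 2.30 CPM in the control. The scaffold genes Fanca, Fancb, Fancc and Fancg had log2 changes of -0.18, -0.03, 0.03 and -0.05. Exonic bases shared with other genes made up 13.7% for Fancl, 10.5% for Fanca and 18.6% for Fancc. The largest overlaps are with Vrk2, Zfp276 and Gm16133, all on the other strand, and Gm16133 had 3 counts over all libraries. Fancg varied most within groups, with a coefficient of variation of 32.7% in the knockout and 31.1% in the control, replicate 3 being the highest in both groups. Fancm, the translocase that anchors the complex on DNA, was the member with the highest log2 change, 0.19 ± 0.15 (SE; adjusted p = 0.777, edgeR). It was at 36.8, 29.0 and 27.9 CPM in the knockout replicates, against 31.4, 26.9 and 23.8 CPM in the control replicates, higher in each pair but overlapping between groups.

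Among the nucleases, Fan1 and Eme1 were lower in every knockout library. Fan1 (ENSMUSG00000033458, chromosome 7, positions 64346758 to 64374095, minus strand) encodes a nuclease drawn in by modified Fancd2. It was at 3.74, 4.50 and 4.23 CPM in the knockout replicates, against 5.86, 6.36 and 5.66 CPM in the control replicates, with a clear gap between the groups. Its log2 change was -0.52 ± 0.18 (SE), at 0.698 of the control level (adjusted p = 0.377, edgeR). Eme1 (ENSMUSG00000039055, chromosome 11, positions 94644996 to 94653964, minus strand) encodes the partner that Mus81 needs to cut branched DNA. It was at 18.8, 17.5 and 19.9 CPM in the knockout replicates, against 25.6, 21.4 and 23.5 CPM in the control replicates, with no overlap and a log2 change of -0.33 ± 0.13 (SE; adjusted p = 0.425, edgeR). Of the exonic bases of Eme1, 10.7% are shared with other genes, so its level is uncertain. The largest overlap is with the much more abundant Lrrc59 on the other strand.

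Mus81 averaged 18.8 ± 2.81 CPM in the knockout and 21.5 ± 3.42 CPM in the control (SD, n = 3), lower in each pair by log2 ratios of -0.16, -0.20 and -0.21. Slx4, the scaffold that holds several nucleases, averaged 53.1 ± 9.70 CPM in the knockout and 52.0 ± 3.41 CPM in the control, and knockout replicate 3 was the lowest of all libraries. The Blm helicase gene averaged 42.3 ± 4.83 CPM in the knockout and 43.5 ± 5.20 CPM in the control. Its within-pair log2 ratios were -0.33, -0.01 and 0.22, so its sign differed between pairs.

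**Figure D3:**
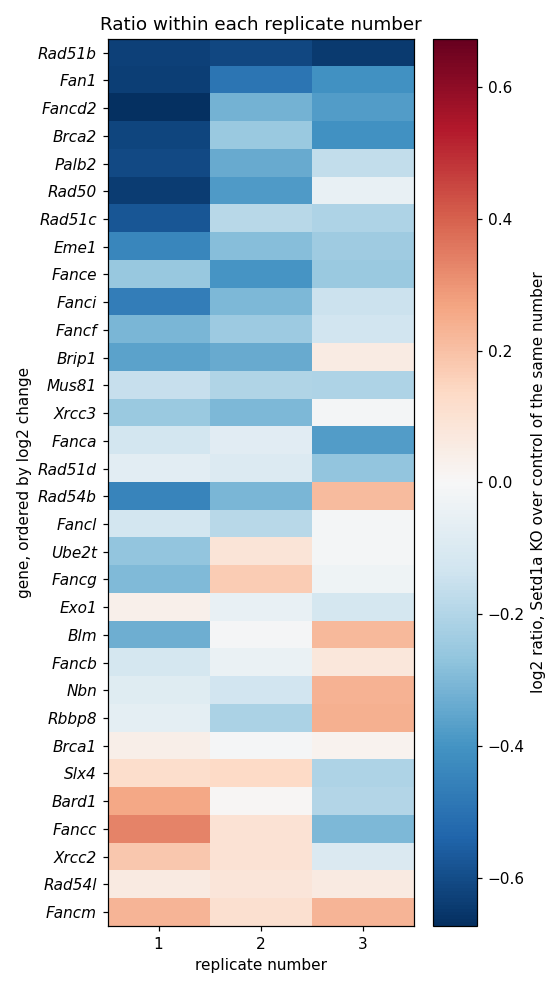
Log2 ratio of knockout to control library of the same replicate number (columns, 1 to 3) for the 32 members (rows, ordered by log2 change); blue is lower and red higher in the knockout. Rad51b has the same depth of blue in each column, while Rad50 goes from -0.64 in pair 1 to -0.05 in pair 3, and Nbn, Rbbp8 and Blm are blue in pair 1 and red in pair 3.

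How far the data bound a change differed between members. In the test without pairing, the 95% interval of the log2 change lay wholly within 0.5 either side of 0 for 13 members, among them Brca1, Bard1, Exo1, Nbn, Rbbp8, Slx4, Blm and Ube2t. It reached below -0.5 for 18 members and above 0.5 for 2, Fancg and Fancm. These counts were not made over all genes tested, so they describe the width of the intervals and not a trait of the members. The limit of 0.5 is larger in size than the log2 change of Fancd2, -0.45. An interval within it therefore does not set a member apart from those that were lower. The 7 members whose interval lay wholly below 0 were Brca2, Palb2, Rad51b, Rad50, Fancd2, Fan1 and Eme1, each by the unadjusted interval alone. They are the 7 at an unadjusted p under 0.05, where 4.51% of all genes tested were lower. Standard errors ran from 0.11 for Brca1 to 0.29 for Fancg. The paired test gave smaller ones for each member, such as 0.17 for Fancg and 0.10 for Fance, against 0.15 for Fance without pairing, and its intervals were not counted.

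Per length of exonic sequence, the members spanned a wide range of levels. Nbn was the highest, at 18.04 CPM per kilobase in the knockout and 18.3 CPM per kilobase in the control, followed by its partner Rad50 at 11.3 CPM per kilobase in the knockout and 14.7 CPM per kilobase in the control. Brca1 was at 6.74 CPM per kilobase in the knockout and 6.65 CPM per kilobase in the control, and Brca2 at 1.36 CPM per kilobase in the knockout and 1.84 CPM per kilobase in the control. The lowest levels were those of Rad51b, Fan1, Fancc and Rad51c, between 0.666 and 0.881 CPM per kilobase in the knockout and between 0.778 and 1.11 CPM per kilobase in the control.

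The members differ widely in length. The genes span from 1691 bases for Fancf to 517409 bases for Rad51b, with a median of 33787 bases, against 24724 bases over the 11741 protein-coding genes tested. Spearman's rho between span and log2 change was 0.09 across the 32 members and 0.12 across the protein-coding genes tested, and with exonic length in place of span it was 0.23 across the members and 0.10 across the protein-coding genes, given as descriptions, since genes of the same libraries are not independent replicates. By span, the median log2 change was -0.21 for the 4 members under 10 kb, -0.14 for the 11 members of 10 to 30 kb, -0.10 for the 13 members of 30 to 100 kb and -0.12 for the 4 longer members, against -0.04, -0.01, 0.02 and 0.04 over protein-coding genes of the same spans. The members lie on 14 chromosomes, with 7 on chromosome 11 and 5 on chromosome 7, and all 5 on chromosome 7 had log2 changes below 0.

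A protein-coding gene on the other strand started within 1000 bases of 10 of the 32 members (31.2%), against 16.8% of the protein-coding genes tested. These head-to-head neighbours were looked up after the members' values had been seen, and 6 of the 9 tested had a log2 change smaller in size than that of the repair gene. Among the 6 were the neighbours of Fancd2, Palb2, Rad51b and Eme1, which are members with an unadjusted p under 0.05. The changes of those members were large to begin with, so the count cannot show that a change stops at the repair gene. Emc3, whose start lies 30 bases from that of Fancd2, was at 90.7, 104.0 and 103.8 CPM in the knockout replicates, against 97.0, 101.1 and 101.4 CPM in the control replicates. Dctn5, 56 bases from Palb2, was at 52.5, 52.7 and 53.01 CPM in the knockout replicates, against 55.4, 52.5 and 57.4 CPM in the control replicates. Their log2 changes were -0.01 and -0.06, beside -0.45 for Fancd2 and -0.38 for Palb2. Nbr1, 194 bases from Brca1, had a log2 change of -0.06, and Mrpl27, 197 bases from Eme1, one of -0.12. Zfyve21, 297 bases from Xrcc3, had the lowest change among the neighbours, -0.27, below the -0.19 of Xrcc3. Of the 9 neighbours tested, 0 had an unadjusted p under 0.05. Whether a member and its neighbour differed in their change was not tested.

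The other genes of the same pathways, a list of 51 that holds the checkpoint kinases, replication protein A, accessory helicases and the rest of the Brca1 complexes, showed the same direction with a smaller median. Of the 51, 35 had log2 changes below 0, against 49.8% of all genes tested, and the median was -0.10. At an unadjusted p under 0.05, 6 were lower and 0 higher, against 4.51% and 5.5% of all genes. No gene of the list passed the test without pairing. In the paired test, where 0.851% of all genes were called lower, 1 fell, Abraxas1, the scaffold that ties Brca1 to ubiquitin at breaks. It was at 9.69, 10.4 and 14.3 CPM in the knockout replicates, against 18.5, 15.8 and 19.2 CPM in the control replicates, with no overlap (paired log2 change -0.65 ± 0.13, SE; paired adjusted p = 0.0363; adjusted p = 0.257 without pairing, edgeR). Mcm8, a helicase subunit that acts in recombination, was at 12.6, 14.5 and 16.2 CPM in the knockout replicates, against 24.8, 19.7 and 19.8 CPM in the control replicates, also with no overlap (adjusted p = 0.244, edgeR). Its partner Mcm9 averaged 6.98 ± 1.03 CPM in the knockout and 9.36 ± 0.416 CPM in the control (SD, n = 3; adjusted p = 0.431, edgeR); it was chosen after its values were seen.

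Cell cycle genes had medians near 0, but most of them also lay below it. The 35 genes of S phase and replication had a median log2 change of -0.04, with 25 below 0 and 0 at an unadjusted p under 0.05 in either direction, and the 27 mitotic genes a median of -0.05, with 21 below 0 and 1 at an unadjusted p under 0.05, Ccnb2. Over all genes tested, 49.8% lay below 0, and 4.51% were lower and 5.5% higher at an unadjusted p under 0.05. The summed level of the S phase list was 3774 to 4068 CPM in the knockout libraries, against 4003 to 4240 CPM in the control libraries. The mitotic list summed to 5615 to 6004 CPM in the knockout libraries, against 5578 to 6555 CPM in the control libraries. Both ranges overlapped. Whether these lists differ from the repair genes was not tested, and the part of cell cycle differences in the changes of the repair genes was not tested.

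**Figure D4:**
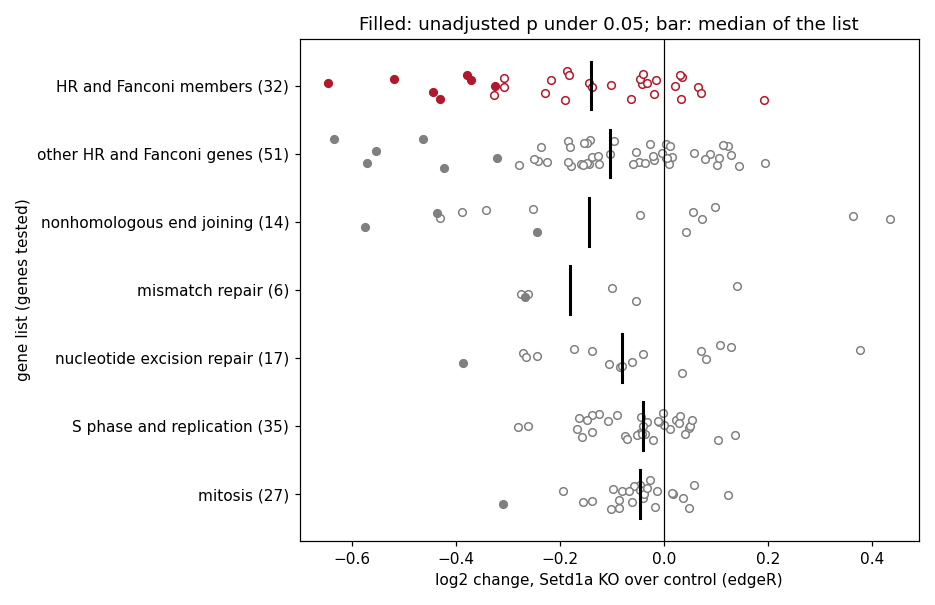
Log2 change, Setd1a knockout over control (horizontal axis), of each gene tested in 7 lists (rows, with the number tested); red is the set of 32 members, filled points have an unadjusted p under 0.05 and black bars are medians. The median is -0.14 for the members, -0.10 for the other genes of their pathways, -0.15 for nonhomologous end joining and -0.18 for mismatch repair. It is -0.08 for nucleotide excision repair, -0.04 for S phase and -0.05 for mitosis.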

How the data were processed

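RNA of 6 libraries was sequenced, 3 of the Setd1a knockout and 3 of the control. The authors deposited 1 table of raw read counts by Ensembl identifier. STAR, featureCounts, DESeq and mm10 appear in the submitters' processing notes, with no versions, and the annotation and strand setting are not given. Symbols and positions came from GENCODE M21 (GRCm38); 241 of 55471 identifiers had no match, with at most 0.00138% of any library's counts.

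Counts were analysed over all genes with edgeR 4.0.16 in R 4.3.3 (TMM, low-count filter by group, two-sided quasi-likelihood test, Benjamini-Hochberg adjustment over 13044 genes, threshold 0.05). The 95% intervals are unadjusted. CPM use TMM-scaled totals. DESeq2 1.42.0, limma-voom (limma 3.58.1), other scalings and filters, and leaving out libraries were alternatives. The steps were tested on simulated counts.

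The paired test had the replicate number as a block. Deviations from the group means correlated at 0.15, 0.46 and 0.38 between same-numbered libraries, all above the limit of 0.1. The paired test was therefore given beside the unpaired one, which stayed the main test. Its pairs come from the data and not from a label, so paired p-values rest on a block chosen from the same counts. Exact permutation of 3 against 3 libraries cannot go below p = 0.1 and was not used. Members and lists were chosen with earlier results of these data known. Library values are given for the 12 members with the smallest unadjusted p, the first of each role and Setd1a, and at most 2 genes by p represent each other list; some genes are not reported here, and the lists were counted without them; further members shown by library were chosen after their values were seen.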

Additional observations from a re-analysis of the deposited data

How the results depend on the processing

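Over 16 alternatives to the unpaired edgeR test, 0 members were called, the members' median log2 change lay between -0.21 and -0.10, and 22 to 25 of 32 members were below 0, or 21 of the 28 that passed a minimum mean of 5 CPM. Of the 32 members, 19 changed sign in no alternative that tested them; Rad51b, Rad51c and Fancl, among the 19, did not pass the 5 CPM minimum. Members lower at an unadjusted p under 0.05 numbered 7, with a range of 2 (without knockout replicate 1, beside 2.46% of all genes) to 11 (paired, without pair 3, beside 10.97% of all genes) when libraries were left out, and 0 were higher in any alternative. Over all genes, where the unpaired test called 0, the numbers called higher and lower were 93 and 40 with DESeq2, 62 and 12 with no low-count filter, and 187 and 111 with the replicate block; leaving out libraries gave 0 to 507 higher and 0 to 207 lower, both highest in the paired test without pair 1. The replicate block changed no member's call. Nbn had a log2 change just above 0 with limma-voom (0.0070), library size alone (0.0039) and the replicate block (0.0037), as did Rbbp8 with library size alone (0.0094). Leaving out libraries turned the sign of 13 members near 0, over these ranges of log2 change: Nbn -0.22 to 0.12, Rbbp8 -0.15 to 0.10, Bard1 -0.093 to 0.14, Fancb -0.13 to 0.053, Fancc -0.10 to 0.21, Fancg -0.34 to 0.23, Ube2t -0.18 to 0.033, Slx4 -0.061 to 0.17, Blm -0.18 to 0.11, Brca1 -0.020 to 0.086, Rad54b -0.44 to 0.0056, Exo1 -0.090 to 0.032, Rad54l -0.0061 to 0.16. The cause was not tested. With 3 libraries a group, the unpaired 95% intervals of 18 members do not exclude a log2 change below -0.5; paired standard errors were smaller.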

Other observations

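Other repair pathways were counted in the same way, beside 49.8% of all genes tested with a log2 change below 0. At an unadjusted p under 0.05, 4.51% of all genes were lower. Of 6 mismatch repair genes tested, 5 had log2 changes below 0, 1 was lower at an unadjusted p under 0.05, and the median was -0.18, lower than for the recombination and Fanconi genes; whether the lists differ was not tested. Msh6, a mismatch recognition gene, averaged 72.0 ± 2.54 CPM in the knockout and 86.7 ± 6.73 CPM in the control (SD, n = 3; adjusted p = 0.420, edgeR).

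Of 14 genes of nonhomologous end joining, 8 had log2 changes below 0, with a median of -0.15 and 3 lower at an unadjusted p under 0.05. Poll, a gap-filling polymerase, was at 9.69, 12.9 and 14.2 CPM in the knockout replicates, against 17.3, 17.9 and 19.7 CPM in the control replicates, and fell in the paired test (adjusted p = 0.0397; 0.297 without pairing, edgeR). Xrcc5, which encodes Ku80, averaged 43.2 ± 8.504 CPM in the knockout and 58.5 ± 6.58 CPM in the control (SD, n = 3; adjusted p = 0.374, edgeR). Of 17 nucleotide excision repair genes, 11 lay below 0, with a median of -0.08, while their summed level averaged 2579.9 CPM in the knockout and 2541 CPM in the control. Gtf2h4, a TFIIH subunit, had a log2 change of -0.39 and Gtf2h3 one of -0.24 (adjusted p = 0.333 and 0.503, edgeR).

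Of 17 p53 target genes tested, 5 lay below 0, against 49.8% of all genes tested, and 12 above, with a median log2 change of 0.04. Phlda3, an inhibitor of Akt, was at 7.54, 8.71 and 9.84 CPM in the knockout replicates, against 5.09, 5.25 and 5.49 CPM in the control replicates, and rose in the paired test (adjusted p = 0.0363; 0.206 without pairing, edgeR). Ccng1 had a log2 change of 0.20 (adjusted p = 0.709, edgeR). Among 9 genes of Setd1a, its complex and cyclin K with its kinases, 5 lay below 0 and none passed either edgeR test, although Setd1a itself had an unadjusted p of 0.0281; after Setd1a, Cxxc1 had the smallest p, with a log2 change of -0.13. Uhrf1 and Chaf1a led the S phase list by p, with log2 changes of -0.26 and -0.16, and Ccnb2 and Ccna2 the mitotic list, with -0.31 and -0.19 (adjusted p between 0.498 and 0.671, edgeR).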
